A study of Mus musculus with 21 samples.

Results

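The genes described here encode the collagens, laminins, fibronectin and other proteins of the extracellular matrix, together with the integrins, the receptors through which cells hold it. They were taken by name from the table of embryoid body values: every gene called Col, Lam, Itg, Fbn, Fbln or Nid with the numbering of its family, plus Fn1, Sparc, Hspg2, Agrn, Vcan, Tnc and Lum. This gave 89 of 24458 genes. By role they are 9 basement membrane collagens, 11 fibrillar collagens, 24 other collagens, 15 laminins and basement membrane linkers, 11 interstitial and elastic matrix genes, 11 integrin alpha chains and 8 integrin beta chains. The rule reads gene names only. Of the 89 genes, 41 had a mean of at least 1 FPKM over the libraries and were tested. FPKM relates the fragments of a gene to the length of its transcript and the size of the library. It is a level per length, so levels of different genes can be set side by side. The other 48 genes stayed under that mean, and 0 of them reached 5 FPKM in any library.

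The libraries came from mouse embryonic stem cells (ESCs) of a mixed 129/C57BL/6 strain that were either wild type or knockout for Rinf, the gene listed as Cxxc5 in the table. Which part of the gene was removed is not stated in the labels. Stem cells of 2 independent lines per genotype were differentiated in hanging drops into embryoid bodies, aggregates in which cells of the early embryonic lineages appear. RNA was taken at days 0, 3 and 6, which gave 6 groups of 2 libraries, named here by genotype, day and replicate 1 or 2. The study asks how loss of Cxxc5 alters gene expression as stem cells leave the pluripotent state. The p-values rest on a single spread per gene, pooled over all 6 groups, to which the unlike lines within a genotype contribute. Each gene therefore has the same SE at days 0, 3 and 6. Where replicates of day 6 stood further apart than those of days 0 and 3, that SE understates their spread.

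The basement membrane is the sheet of matrix on which epithelial layers rest. Its laminins, trimers of an alpha, a beta and a gamma chain, assemble at the cell surface, and a network of type IV collagen is joined to them by nidogens and by the heparan sulfate proteoglycans perlecan (Hspg2) and agrin (Agrn). In the early embryo a basement membrane forms between the epiblast and the primitive endoderm, and embryoid bodies form a like layer under their outer cells. Fibronectin (Fn1) belongs to the interstitial matrix, is held mainly by the integrin of the alpha 5 and beta 1 chains, and is needed for mesoderm and the early vasculature. Fibrillins (Fbn1 and Fbn2) form the microfibrils of elastic tissue, and fibulins bind to them and to basement membranes. Integrins are pairs of an alpha and a beta chain, and many alpha chains share the beta 1 chain (Itgb1).

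Estimated depth lay between 15100000 and 32100000 reads per library, so that 1 FPKM in a transcript of 2 kb rested on 30.2 to 64.1 reads. Cxxc5 stood at 5.05 to 11.9 FPKM in the 6 knockout libraries and at 25.1 to 52.3 in the 6 wild type libraries. RNA of the Y chromosome also separated the genotypes: Eif2s3y stood at 1.40 to 3.92 FPKM in knockout and at 9.40 to 20.4 in wild type. Its part in the differences below was not tested. At day 6 the replicates stood apart from each other: of the 41 tested genes, wild type replicates 1 and 2 differed by over 1.5-fold in 22, against 13% of all 12472 genes tested, and knockout replicates in 13, against 9.53%. Results for day 6 are therefore given with and without single libraries.

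The CXXC domain of the Cxxc5 protein binds unmethylated CpG, the dinucleotide that is dense in the start regions of many genes. Upstream sequence is shown for 4 of the genes, with each CpG in capitals: Itgb5, which had the lowest adjusted p of the 41 at day 6, Nid1, whose genotype difference at day 0 pointed the other way from that at day 6, and the neighbours Col4a5 and Col4a6, which rose together with time. The sequences come from the RefSeq promoter table of GRCm38.p6, 5′ to 3′ on the strand of the gene, and end before the annotated start of the gene. They span chr16:33829415-33829664 (plus strand), chr13:13437352-13437541 (plus strand), chrX:141475169-141475368 (plus strand) and chrX:141474097-141474326 (minus strand), and hold 18, 13, 6 and 1 CpG.
Itgb5: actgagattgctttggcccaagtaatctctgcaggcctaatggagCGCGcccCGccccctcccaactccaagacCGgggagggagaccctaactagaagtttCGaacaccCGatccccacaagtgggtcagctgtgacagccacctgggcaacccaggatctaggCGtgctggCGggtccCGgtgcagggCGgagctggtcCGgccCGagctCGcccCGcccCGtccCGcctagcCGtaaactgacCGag
Nid1: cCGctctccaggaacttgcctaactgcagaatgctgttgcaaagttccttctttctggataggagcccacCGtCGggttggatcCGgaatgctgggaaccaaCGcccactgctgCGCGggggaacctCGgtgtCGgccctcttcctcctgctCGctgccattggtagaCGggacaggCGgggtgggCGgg
Col4a5: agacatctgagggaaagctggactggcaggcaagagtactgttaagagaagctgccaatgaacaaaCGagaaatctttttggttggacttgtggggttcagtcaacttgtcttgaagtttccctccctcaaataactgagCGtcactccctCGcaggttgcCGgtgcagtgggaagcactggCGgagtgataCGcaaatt
Col4a6: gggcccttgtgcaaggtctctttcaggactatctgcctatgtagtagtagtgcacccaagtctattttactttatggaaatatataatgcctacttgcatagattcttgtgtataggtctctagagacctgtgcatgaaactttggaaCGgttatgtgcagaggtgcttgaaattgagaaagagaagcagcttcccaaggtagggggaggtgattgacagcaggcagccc

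Among windows of 300 bases around the start of transcription in that table, 65 of the 89 genes had at least 1. Genes called higher in knockout at day 6 had a median of 20 CpG over 17 windows of 16 genes. The median was 12 over 18 windows of 14 tested genes that were not called, and 7 over all 32851 windows. Those 32851 windows were not filtered on level, so they are not a like set. Over 40 windows of the 35 genes too low to be tested, the median was 9.5. The motif GGGCGG, searched on both strands and itself holding a CpG, was in 70.6% of windows of the called genes, 83.3% of those not called and 35.7% of all. CCAAT, on both strands, was in 23.5%, 33.3% and 37.4%, and TATAAA in 5.88%, 11.1% and 13.6%. The range of CpG per window ran from 4 to 37 among called genes and from 3 to 42 among tested genes that were not called. Itgb5 had 20 CpG in the window, Nid1 20, Fbn1 14, and Sparc and Lamb2 4 each, so CpG-rich and CpG-poor starts both occurred among the called genes. Col4a1 and Col4a2 are read outward from a common start region on chromosome 8, where the starts used for their RefSeq windows, 11312826 and 11312805, lie 21 bases apart. The gene model of Col4a1 reaches further, to 11312889. They had 37 and 33 CpG in their windows.

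At day 6, genes for type IV collagen, laminin chains, fibronectin, fibrillins and integrins were among those higher in knockout embryoid bodies. Of the 41 tested genes, 20 were higher and 0 lower past an adjusted p of 0.05 (limma on log2(FPKM + 1), Benjamini-Hochberg over all 12472 genes tested). The same test called 34.1% of all genes, 17.9% higher and 16.2% lower. The median log2 difference of the 41 genes was 0.47, against 0.02 for all genes, and 34 of the 41 lay above 0. At an unadjusted p under 0.05, 24 of the 41 were higher and 1, Col2a1, was lower (46.4% of all genes in either direction). The 2 knockout libraries lay above both wild type libraries in 24 of the 41 genes, against 34.4% of all genes, and below both in 0, against 29.3%. In whole embryoid bodies, more cells of a type and more RNA per cell cannot be told apart.

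**Figure D1:**
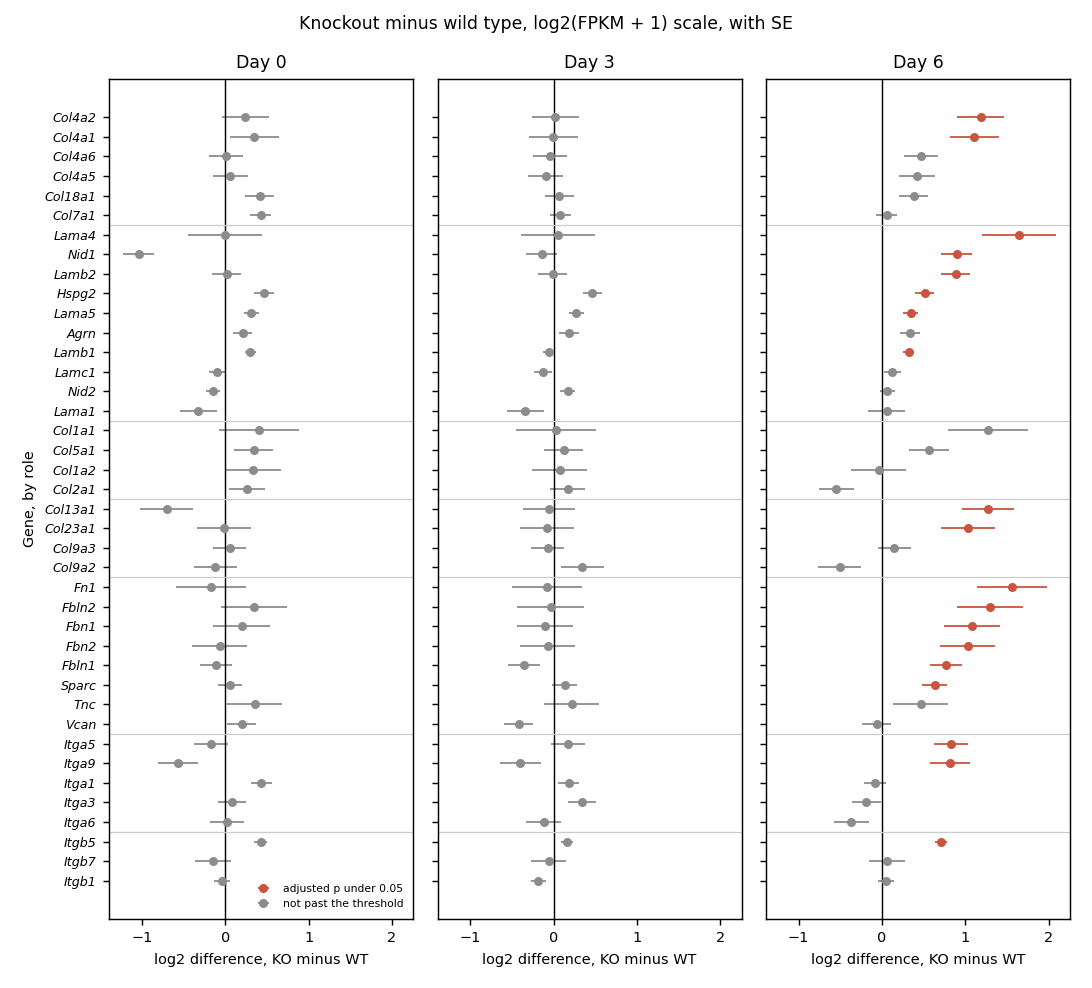
Knockout minus wild type difference of 40 tested genes on the log2(FPKM + 1) scale at days 0, 3 and 6, by role, with bars for the SE from limma; red points passed an adjusted p of 0.05. At day 6, 19 of the genes drawn passed, all to the right of 0, and at days 0 and 3 none did.

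Fn1 (chromosome 1, 71585473 to 71653280 in mm10) was the most abundant of these genes at day 6 in every library but wild type replicate 1, where Itgb1 was. In the order replicate 1, replicate 2, Fn1 stood at 98.8 and 322 FPKM in wild type and 515 and 544 in knockout. The knockout libraries lay close together and above both wild type libraries, which differed between themselves. The difference passed (log2 difference 1.56, SE 0.42, adjusted p = 0.0217), and the ratio of the group means was 2.52. That SE is pooled over the 3 days, while the SD of Fn1 in wild type was 3.94 FPKM at day 0, 7.36 at day 3 and 158 at day 6. The adjusted p thus does not reflect the spread of day 6 alone. Fn1 alone made up 13.1% and 30.6% of the summed FPKM of the 89 genes in wild type at day 6, and 38.2% and 34.2% in knockout. The summed level of the 89 genes was 753 and 1052 FPKM in wild type and 1348 and 1591 in knockout. Without Fn1 the sum was 654 and 729.8 in wild type and 833 and 1047 in knockout, so the order of the libraries did not rest on Fn1.

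Of the 6 tested basement membrane collagens, 2 were higher in knockout, Col4a1 and Col4a2, which encode the chains of the common type IV collagen network. Col4a1 (chromosome 8, 11198423 to 11312889) stood at 23.4 and 42.8 FPKM in wild type and 54.1 and 88.8 in knockout (log2 difference 1.10, SE 0.29, adjusted p = 0.0206). Col4a2 (chromosome 8, 11312805 to 11449287) stood at 11 and 19.6 FPKM in wild type and 27.2 and 44.3 in knockout (log2 difference 1.18, SE 0.28, adjusted p = 0.0139). In both genes wild type replicate 1 was lowest and knockout replicate 2 highest. The gene models of this pair overlap at their starts on opposite strands, and whether the counting used strand is not given, so reads in that overlap cannot be assigned to either. Col4a5 and Col4a6, of the type IV network found in other basement membranes, stood at 1.86 and 3.52 FPKM in wild type and 3.25 and 4.45 in knockout and at 1.65 and 2.94 FPKM in wild type and 2.92 and 4.11 in knockout, with the second wild type library above or level with the first knockout library (adjusted p = 0.152 and 0.105). Col18a1, whose product carries the endostatin fragment, stood at 46.4 and 29.8 FPKM in wild type and 44.6 and 53.2 in knockout (log2 difference 0.38, adjusted p = 0.118), and Col7a1, of anchoring fibrils, at 1.37 and 1.40 FPKM in wild type and 1.38 and 1.59 in knockout (log2 difference 0.06, adjusted p = 0.746). The remaining 3, Col4a3, Col4a4 and Col15a1, were at or under 0.0650 FPKM in all 12 libraries.

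Of the 11 tested laminin and linker genes, 7 were higher in knockout. The alpha 4 chain gene Lama4 (chromosome 10, 38965515 to 39110188), known from vessels and mesenchyme, had the largest log2 difference of the 41 genes. It stood at 0.237 and 2.36 FPKM in wild type and 3.47 and 8.09 in knockout (log2 difference 1.64, SE 0.45, adjusted p = 0.0226). Wild type replicate 1 was at the level of day 3, and the other 3 libraries were above it. Lamb2, for the beta 2 chain, stood at 5.30 and 5.48 FPKM in wild type and 8.56 and 13.5 in knockout (log2 difference 0.88, SE 0.18, adjusted p = 0.007), with the wild type libraries level and both knockout libraries above them. Nid1, for nidogen 1, stood at 6.29 and 9.13 FPKM in wild type and 12.2 and 18.3 in knockout (log2 difference 0.89, SE 0.19, adjusted p = 0.00872). Hspg2 stood at 19.4 and 16.8 FPKM in wild type and 24.1 and 28.5 in knockout (log2 difference 0.51, adjusted p = 0.0115). The differences of Lama5 and Lamb1, for the alpha 5 and beta 1 chains, were smaller: Lama5 stood at 28.0 and 24.3 FPKM in wild type and 32.0 and 34.7 in knockout (log2 difference 0.34, adjusted p = 0.0197) and Lamb1 at 34.6 and 37.5 FPKM in wild type and 42.6 and 47.9 in knockout (log2 difference 0.32, adjusted p = 0.00899).

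Lama1 and Lamc1, for chains of the first embryonic laminin, did not pass at day 6. Lama1, its alpha chain, stood at 3.44 and 2.58 FPKM in wild type and 2.27 and 4.26 in knockout, with the libraries interleaved (log2 difference 0.06, SE 0.22, adjusted p = 0.864). Lamc1, the gamma 1 chain shared by most laminins, stood at 32.2 and 27.6 FPKM in wild type and 29.2 and 36.2 in knockout (log2 difference 0.12, SE 0.10, adjusted p = 0.381). Agrn stood at 27.4 and 31.0 FPKM in wild type and 32.3 and 42.6 in knockout, above both wild type libraries in knockout, but did not pass (log2 difference 0.34, SE 0.12, adjusted p = 0.0527). Nid2, for the second nidogen, stood at 36.9 and 32.0 FPKM in wild type and 35.0 and 37.1 in knockout (log2 difference 0.07, adjusted p = 0.577). Unlike Nid1, its libraries overlapped between genotypes.

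Of the 8 tested interstitial and elastic matrix genes, 6 were higher in knockout: Fn1, Fbln2, Fbn1, Fbn2, Fbln1 and Sparc. Fbln2, for fibulin 2, stood at 1.47 and 5.24 FPKM in wild type and 7.07 and 10.5 in knockout (log2 difference 1.30, SE 0.40, adjusted p = 0.035). Fbn1 stood at 1.29 and 3.39 FPKM in wild type and 3.94 and 8.11 in knockout (log2 difference 1.08, adjusted p = 0.0375) and Fbn2 at 4.40 and 10.5 FPKM in wild type and 11.5 and 19.6 in knockout (log2 difference 1.03, adjusted p = 0.0407). In both fibrillin genes the second wild type library lay close under the first knockout library, while wild type replicate 1 lay well below and knockout replicate 2 well above. Fbln1 stood at 26.7 and 40.2 FPKM in wild type and 48.9 and 64.8 in knockout (log2 difference 0.76, adjusted p = 0.0174). Sparc, for a collagen-binding protein that is abundant in parietal endoderm, stood at 53.3 and 64.4 FPKM in wild type and 76.4 and 109 in knockout (log2 difference 0.63, SE 0.15, adjusted p = 0.0136). Vcan, for the proteoglycan versican, stood at 23.6 and 23.0 FPKM in wild type and 17.5 and 28.1 in knockout, with no separation of the genotypes (log2 difference -0.06, SE 0.17, adjusted p = 0.802). Tnc, for tenascin C, stood at 0.467 and 0.70 FPKM in wild type and 0.951 and 1.43 in knockout (log2 difference 0.46, adjusted p = 0.304).

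None of the 4 tested fibrillar collagen genes passed at day 6, by limma, while 3 of them had an unadjusted p under 0.05. Col1a1, for the alpha 1 chain of type I collagen, stood at 0.883 and 3.49 FPKM in wild type and 4.13 and 8.67 in knockout (log2 difference 1.28, SE 0.48, adjusted p = 0.0694). Its partner chain Col1a2 stood at 1.93 and 2.28 FPKM in wild type and 1.5 and 2.65 in knockout (log2 difference -0.04, adjusted p = 0.946), so that the library order of the pair differed. Col2a1, for the collagen of cartilage and notochord, ran the other way, at 13.4 and 8.14 FPKM in wild type and 8.17 and 5.72 in knockout (log2 difference -0.55, SE 0.21, adjusted p = 0.075), with wild type replicate 1 above the rest and knockout replicate 2 lowest. Col5a1 stood at 6.07 and 9.40 FPKM in wild type and 9.90 and 13.7 in knockout (log2 difference 0.56, adjusted p = 0.0958). Among the 4 tested other collagens, the membrane-spanning Col13a1 and Col23a1 were higher in knockout. Col13a1 stood at 0.497 and 2.46 FPKM in wild type and 4.63 and 4.36 in knockout (log2 difference 1.27, SE 0.31, adjusted p = 0.0162) and Col23a1 at 1.05 and 3.79 FPKM in wild type and 4.96 and 5.89 in knockout (log2 difference 1.03, SE 0.32, adjusted p = 0.0385). The cartilage collagen genes Col9a2 (-0.51) and Col9a3 (0.15) did not pass (adjusted p = 0.156 and 0.587).

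Of the 8 tested integrin genes, 3 were higher in knockout: Itga5, Itga9 and Itgb5. Itgb5 (chromosome 16, 33829665 to 33949338), whose chain pairs with the alpha V chain in a receptor for vitronectin, stood at 21.8 and 23.8 FPKM in wild type and 35.6 and 40.1 in knockout. The replicates of each genotype lay closer to each other than to the other genotype, and the difference had the lowest adjusted p of the 41 genes (log2 difference 0.71, SE 0.07, adjusted p = 0.000523). Itga5, for the alpha chain of the fibronectin receptor, stood at 12.7 and 20.9 FPKM in wild type and 26.9 and 33.0 in knockout (log2 difference 0.83, SE 0.20, adjusted p = 0.0151). Itga9, whose integrin binds tenascin C and other ligands, stood at 2.21 and 4.82 FPKM in wild type and 5.78 and 7.5 in knockout (log2 difference 0.81, SE 0.24, adjusted p = 0.0319). Itgb1, the common partner chain and the most abundant integrin gene, stood at 138 and 161 FPKM in wild type and 149 and 160.0 in knockout and did not separate the genotypes (log2 difference 0.05, SE 0.09, adjusted p = 0.723). The laminin receptor chain Itga6 stood at 33.6 and 21.5 FPKM in wild type and 24.2 and 17.5 in knockout (log2 difference -0.37, SE 0.21, adjusted p = 0.193). The laminin receptor chain Itga3 (-0.19), the collagen receptor chain Itga1 (-0.08) and the lymphoid chain Itgb7 (0.06) did not pass either, with adjusted p-values of 0.416, 0.632 and 0.855.

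**Figure D2:**
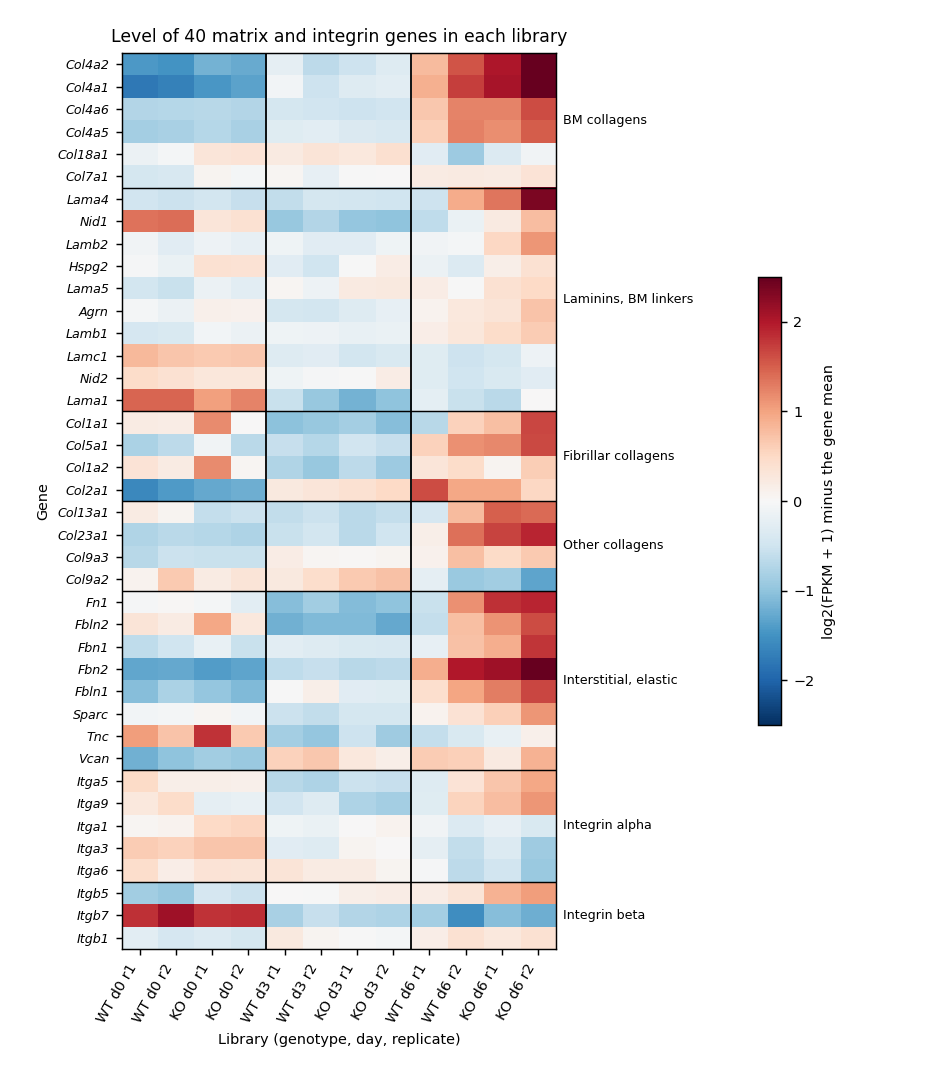
Level of 40 tested genes in the 12 libraries, as log2(FPKM + 1) minus the mean of the gene, with genes in rows by role and libraries in columns by day, genotype and replicate. At day 6, Fn1, Col4a1, Col4a2 and Lama4 are lowest in wild type replicate 1 and highest in knockout replicate 2.

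The libraries of day 6 formed a row rather than a pair of tight groups. In 21 of the 41 genes, and in 17 of the 20 that were higher in knockout, wild type replicate 1 was lowest, followed by wild type replicate 2, knockout replicate 1 and knockout replicate 2. This order held for 17.4% of all genes tested and for 58.1% of the 2228 genes higher in knockout, and its reverse for 0 of the 41 genes and 13.5% of all genes. The count of members called varied with the library left out, as did the share of all genes called. Without wild type replicate 1, 9 were higher and 0 lower, against 10% and 10.5% of all genes. Without knockout replicate 2, 3 were higher and 1, Vcan, was lower, against 6.84% and 9.38%. Without wild type replicate 2, 23 were higher and 3 lower, against 19.5% in each direction. Without knockout replicate 1, 19 were higher and 2 lower, against 18.2% and 16%. A fit of the 4 libraries of day 6 alone, which takes no spread from the other days, called 0 of 44 tested. It called 0.161% of all genes higher and 0.764% lower. Itgb5 and Lamb2 passed without either of those 2 libraries. Without wild type replicate 1, Fn1 still passed at a log2 difference of 0.72 (adjusted p = 0.00689), while Col4a1 (0.68, adjusted p = 0.113), Col4a2 (0.80, adjusted p = 0.0749) and Lama4 (0.92, adjusted p = 0.0990) did not. Where a library is left out, the lone remaining library of its group is assumed to vary like the other groups.

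Markers of several cell types moved along the same row of libraries. Their counts stand beside the 17.9% of all genes called higher and the 16.2% called lower. All 8 tested genes of the cardiac and lateral mesoderm list of 12 were higher in knockout at day 6. Their regulators Hand1 and Foxf1 stood at 2.67 and 74.6 FPKM in wild type and 137 and 236 in knockout and at 0.639 and 22.3 FPKM in wild type and 40.0 and 66.8 in knockout. Hand2, a close relative of Hand1, stood at 0.681 and 9.74 FPKM in wild type and 19.5 and 30.7 in knockout, and Tbx20, a regulator of heart development, at 1.27 and 13.7 FPKM in wild type and 29.2 and 46.1 in knockout. The summed level of the list was 14.2 and 165 FPKM in wild type and 321 and 514 in knockout, in the same order as most matrix genes. Of 9 tested genes of 15 in the extraembryonic endoderm list, 4 were higher and 0 lower, with sums of 273 and 380 FPKM in wild type and 636 and 898 in knockout. Apoe made up most of each of these sums. Gata6 stood at 6.45 and 20.5 FPKM in wild type and 26.7 and 39.0 in knockout, Gata4 at 5.95 and 25.7 FPKM in wild type and 36.4 and 51.2 in knockout and Apoe at 226 and 281 FPKM in wild type and 538 and 739.8 in knockout. The visceral endoderm genes Afp, Ttr, Apoa1 and Hnf4a were at or under 2.22 FPKM in all 12 libraries, and Afp at or under 0.0350. Their part in the matrix differences was not tested.

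The counts of the next lists also stand beside the 17.9% of all genes called higher and the 16.2% called lower. Of 10 tested genes of 12 for blood and endothelium, 2 were higher, close to the share of all genes. These were Cdh5 (0.952 and 2.92 FPKM in wild type and 8.16 and 11.4 in knockout) and Gata2. The sums of that list were 20.5 and 70.0 FPKM in wild type and 82.7 and 129 in knockout. Of 5 tested of 10 feeder fibroblast genes, Twist1 and Twist2 were higher, with sums of 17.2 and 22.7 FPKM in wild type and 25.4 and 36.6 in knockout. In the opposite direction, 7 of 8 tested neuroectoderm genes of 12 were lower in knockout, with sums of 173 and 105 FPKM in wild type and 84.0 and 43.8 in knockout. Pou5f1, of pluripotent cells, stood at 234 and 118 FPKM in wild type and 123 and 46.1 in knockout. Of the 12 pluripotency genes, all tested, 1 was higher (Tbx3) and 2 were lower (Sox2 and Lin28a), with sums of 1045 and 746 FPKM in wild type and 823 and 504 in knockout. The part of these cell types in the matrix differences was not tested.

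Genes that fold, cut and bind the matrix were read from lists chosen by function, with log2 differences, knockout minus wild type, in parentheses. Of all genes tested, 17.9% were called higher and 16.2% lower, and their median log2 difference was 0.02. Of 23 tested genes for collagen folding, secretion and crosslinking, 6 were higher and 1 lower at day 6 (median log2 difference 0.29). P3h1, Crtap and Ppib encode the parts of the complex that hydroxylates proline in collagen chains, and all 3 were higher. Ppib stood at 69.9 and 70.9 FPKM in wild type and 104 and 103 in knockout (0.55, adjusted p = 0.000901), P3h1 at 5.24 and 5.71 FPKM in wild type and 8.73 and 9.59 in knockout (0.65, adjusted p = 0.00331) and Crtap at 14.9 and 13.5 FPKM in wild type and 19.0 and 21.4 in knockout (0.48, adjusted p = 0.00238). In these genes the replicates of each genotype lay closer to each other than to the other genotype. Pcolce, for an enhancer of procollagen processing, was higher as well (0.46). The genes for the galactosyltransferase Colgalt1 (0.43) and the lysyl hydroxylase Plod3 (0.29) were also higher, and the ion channel gene Tmem38b was lower (-0.26).

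Of 16 tested proteases and inhibitors, 4 were higher and 1 lower (median 0.34). The membrane protease gene Mmp15 stood at 8.96 and 15.5 FPKM in wild type and 20.5 and 34.0 in knockout (1.10, adjusted p = 0.0129). The secreted protease gene Htra1 (0.72), the protease inhibitor gene Reck (0.69) and Adamts1 (0.57) were higher, and the inhibitor gene Timp3 was lower (-0.68). Of 19 tested genes of the integrin adhesion machinery, 6 were higher and 1 lower (median 0.18). Higher were both parvin genes, Parva (0.73) and Parvb (1.15), both talin genes, Tln1 (0.57) and Tln2 (0.63), Pxn (0.42) and Actn1 (0.46). Lims1, for the PINCH partner of the parvins and the kinase Ilk, was lower, at 24.8 and 24.3 FPKM in wild type and 14.3 and 16.5 in knockout (-0.64, adjusted p = 0.000916). Of 13 tested matrix receptors other than integrins, the glypican gene Gpc3 (1.24) and Rpsa (0.45), for the ribosomal protein also known as a laminin receptor, were higher and 0 were lower (median 0.24). The cell type markers above moved with these lists too, and their part was not tested.

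At day 0, before differentiation, 0 of the 41 genes passed by limma, which called 0.369% of all genes tested (0.216% higher and 0.152% lower). At an unadjusted p under 0.05, 8 were higher and 2 lower (14.7% of all genes in either direction), and the median log2 difference was 0.06. Nid1 had the largest difference of the 41 on the log2(FPKM + 1) scale. It stood at 28.2 and 28.8 FPKM in wild type and 13 and 13.7 in knockout (log2 difference -1.04, SE 0.19, adjusted p = 0.0552), so that knockout held 0.470 of the wild type mean, below it in contrast to day 6. By the ratio of the FPKM means Col13a1 was further apart, at 1.31 and 1.08 FPKM in wild type and 0.315 and 0.377 in knockout, a ratio of 0.290 that did not pass (log2 difference -0.70, adjusted p = 0.349). Itgb5 stood at 9.95 and 9.37 FPKM in wild type and 13.8 and 12.8 in knockout (log2 difference 0.42, adjusted p = 0.0526), higher in knockout, as at day 6. Hspg2 stood at 21.3 and 19.1 FPKM in wild type and 28.5 and 28.0 in knockout (log2 difference 0.47, adjusted p = 0.133), and Lamb1 at 22.7 and 23.2 FPKM in wild type and 29.3 and 27.7 in knockout (log2 difference 0.30, adjusted p = 0.1). In these genes the genotypes did not overlap, as in 22 of the 41 genes, 14 with knockout higher and 8 with knockout lower, against 24.3% and 25.5% of all genes. A fit without the libraries of day 6, chosen after seeing the data, called 6 of 34 tested: Itgb5, Lamb1, Col18a1 and Itga1 higher, and Nid1 and Itga9 lower. That fit called 2.32% of all genes higher and 1.69% lower, more than the fit of all libraries.

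Knockout replicate 1 stood apart at day 0 in part of the matrix genes. It was over 1.5 times the next of the 4 libraries in 20 of the 89 genes, against 4.13% of all 24458 genes, and in 8 of the 41 tested genes, against 1.10%. In the other 3 libraries 0, 4 and 0 of the 89 genes did so. Col1a1 stood at 2.47 and 2.45 FPKM in wild type and 5.89 and 2.07 in knockout, Col1a2 at 2.01 and 1.75 FPKM in wild type and 4.36 and 1.46 in knockout and Tnc at 3.60 and 2.62 FPKM in wild type and 6.76 and 2.5 in knockout. Col3a1, Col5a2, Col6a1, Col12a1 and Fbln2 showed the same library above the rest. Not all did: Fn1 stood at 143 and 148 FPKM in wild type and 139.8 and 119.9 in knockout, and Sparc, Vcan and Fbln1 also showed no such gap. Of the feeder fibroblast list, S100a4 stood at 2.84 and 5.12 FPKM in wild type and 8.66 and 3.58 in knockout and Acta2 at 3.28 and 2.44 FPKM in wild type and 5.90 and 2.54 in knockout, while Dcn was at 0.262 and 0.135 FPKM in wild type and 0.335 and 0.0660 in knockout and Fap and Dpt were at or under 0.0676 and 0.0870 FPKM in the 4 libraries. The summed level of that list of 10 was 10.6 and 11.9 FPKM in wild type and 20.4 and 9.35 in knockout. S100a4 and Acta2 made up most of that sum in each library. The part of feeder cells in these values was not tested. Without this library, 0 of 42 tested genes passed, as with it.

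**Figure D3:**
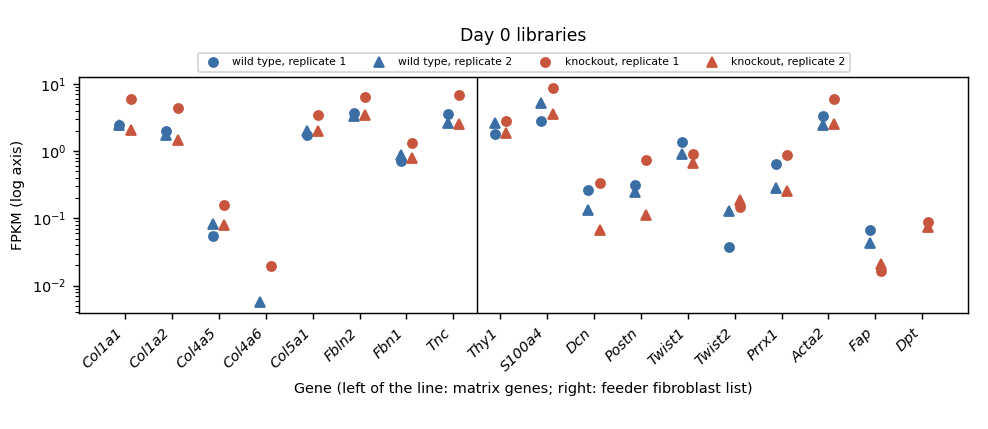
FPKM on a log axis in the 4 libraries of day 0 for the 8 tested matrix genes in which knockout replicate 1 was over 1.5 times the next library, left of the line, and for the 10 genes of the feeder fibroblast list, right of it; a value of 0 is not drawn. The genes on the left were chosen for this pattern, with Col1a1 at 5.89 FPKM against 2.07 to 2.47. On the right knockout replicate 1 is highest in most genes but not all, and several of them lie near 0 FPKM. The share of all genes in which this library is highest was not counted.

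At day 3 no gene of the 41 separated the genotypes past the test. By limma 0 of the 41 genes passed, against 1.19% of all genes (1.12% higher and 0.0722% lower), with 3 higher and 1 lower at an unadjusted p under 0.05 (14.8% of all genes in either direction) and a median of -0.00. Both knockout libraries lay above the wild type range in 12 genes and below it in 12, against 29% and 31.3% of all genes. Fn1 stood at 68.9 and 79.3 FPKM in wild type and 68.0 and 72.2 in knockout, Col4a1 at 11.6 and 8.32 FPKM in wild type and 9.63 and 10.1 in knockout and Nid1 at 4.89 and 5.79 FPKM in wild type and 4.81 and 4.65 in knockout, each with overlapping or adjacent libraries. Hspg2 again lay higher in knockout, at 17.7 and 15.1 FPKM in wild type and 21.5 and 24.6 in knockout (log2 difference 0.47, adjusted p = 0.107), and Vcan lower, at 22.7 and 24.2 FPKM in wild type and 18.1 and 16.5 in knockout (log2 difference -0.42, adjusted p = 0.317). In a fit without the libraries of day 6, Hspg2 and Itga3 were higher and Vcan was lower of 34 tested, against 3.45% of all genes higher and 1.05% lower. Of the related lists, Htra1 was higher in knockout at day 3 (1.20 and 1.01 FPKM in wild type and 3.68 and 4.61 in knockout, log2 difference 1.28, adjusted p = 0.00862), as was Sdc4, for syndecan 4 (30.8 and 35.8 FPKM in wild type and 47.4 and 54.0 in knockout, 0.59, adjusted p = 0.0426). Of the 6 higher genes of the folding list at day 6, 0 passed at day 3.

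Over the first 3 days the laminin genes Lama1 and Lamc1 fell, and the type IV collagen genes Col4a1 and Col4a2 rose. From day 0 to day 3, 10 of the 41 genes rose and 14 fell in wild type, against 25.5% and 30.2% of all genes (55.7% in either direction). In knockout 9 rose and 14 fell, against 24.6% and 28% of all genes (52.6%). All 9 that rose in knockout also rose in wild type, with Lamb1 in addition there, and 12 of the genes that fell were shared. Lama1, the alpha chain gene of the first embryonic laminin, went from 13.4 ± 0.0141 to 2.13 ± 0.597 FPKM in wild type (SD, n = 2; log2 change -2.22, adjusted p = 6.6e-05) and from 10.6 ± 1.20 to 1.46 ± 0.200 in knockout (-2.23, adjusted p = 8.18e-05). Lamc1 went from 68.0 ± 3.73 to 32.3 ± 0.689 FPKM in wild type (-1.05) and from 63.7 ± 1.05 to 29.5 ± 0.983 in knockout (-1.08). Itgb7, known from lymphocytes, fell most, from 13.9 ± 2.12 to 1.34 ± 0.272 FPKM in wild type (-2.67), with a log2 change of -2.58 in knockout.

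Nid1 fell in both genotypes from unlike starting levels, from 28.5 ± 0.458 to 5.34 ± 0.636 FPKM in wild type (log2 change -2.22) and from 13.4 ± 0.485 to 4.73 ± 0.116 in knockout (-1.33). Tnc fell by log2 changes of -1.79 in wild type and -1.93 in knockout, and Fbln2 by -1.42 and -1.80. Itga5, Itga3, Sparc and Agrn fell in both as well. Fn1 did not pass, at 145 ± 3.94 and 74.1 ± 7.36 FPKM in wild type on days 0 and 3 (-0.97, adjusted p = 0.0792). Genes that rose included Col2a1, with log2 changes of 1.79 in wild type and 1.69 in knockout, and Vcan, with 1.72 and 1.11. Col4a1 rose from 2.97 ± 0.188 to 9.98 ± 2.35 FPKM in wild type (1.45) and from 4.05 ± 0.277 to 9.85 ± 0.313 in knockout (1.10), and Col4a2, Fbln1, Itgb5, Lama5 and Itgb1 rose in both.

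From day 3 to day 6, 17 of the 41 genes rose and 4 fell in wild type, against 17.4% and 18.4% of all genes (35.9% in either direction). In knockout 27 rose and 6 fell, against 29.2% and 29.9% of all genes (59.1%). The median log2 change was 0.44 in wild type and 0.80 in knockout, against -0.01 and -0.00 for all genes. Of the genes that rose, 16 did so in both genotypes. Fbn2, for the fibrillin of embryonic tissue, had the largest change in both on the log2(FPKM + 1) scale, with 2.05 in wild type and 3.15 in knockout. By the ratio of mean FPKM, Col4a6 changed more than Fbn2 in wild type (11.2 against 8.28), and Col23a1 (23.0), Lama4 (21.1) and Col4a6 (20.5) did so in knockout (19.3 for Fbn2). Fn1 rose from 74.1 ± 7.36 to 210.3 ± 158 FPKM in wild type (1.26, adjusted p = 0.045) and from 70.1 ± 2.92 to 529 ± 20.7 in knockout (2.90, adjusted p = 0.00061). Col4a2 rose by 1.62 and 2.78, Col4a1 by 1.59 and 2.70, and Sparc by 0.80 and 1.30.

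Col4a5 and Col4a6, whose upstream sequences are given above, sit head to head on the X chromosome (141475370 to 141689236 and 141165403 to 141474095) and rose together. Col4a6 was at or under 0.0194 FPKM in the 4 libraries of day 0, and stood at 0.215 and 0.195 FPKM in wild type and 0.158 and 0.185 in knockout at day 3. By day 6 it had risen by log2 changes of 1.42 in wild type and 1.93 in knockout, and Col4a5 by 1.21 and 1.73. At day 6 Col4a5 was at 1.08 to 1.20 times the FPKM of Col4a6 in all 4 libraries, against 2.38 to 2.99 times at day 3. Among genes that fell from day 3 to day 6, Col9a2, Col18a1, Itga6 and Nid2 did so in both genotypes, and Itga1 and Itga3 passed in knockout. Lama4, Col13a1, Lamb2, Nid1 and Lama1 were among 11 genes whose rise passed in knockout and not in wild type. Col2a1 was the reverse, with 1.02 in wild type and 0.31 in knockout (adjusted p = 0.00837 and 0.236).

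Whether the change from day 3 to day 6 differed between genotypes was tested directly. Of the 41 genes 1 passed, against 4.51% of all genes (1.3% higher and 3.21% lower): Itgb5, whose rise was larger in knockout by 0.54 on the log2 scale (SE 0.11, adjusted p = 0.0311). It went from 19.0 ± 0.116 to 22.8 ± 1.41 FPKM in wild type and from 21.4 ± 0.452 to 37.9 ± 3.21 in knockout (SD, n = 2). The median difference of the 41 genes was 0.40, against 0.00 for all genes, and at an unadjusted p under 0.05 there were 17 higher and 2 lower (25.2% of all genes). The differences of Fn1 (1.64, adjusted p = 0.139), Lama4 (1.59, adjusted p = 0.162), Col4a1 (1.11, adjusted p = 0.148), Col2a1 (-0.72, adjusted p = 0.181) and Nid1 (1.04, adjusted p = 0.0644) did not pass. For the genes that passed in only 1 genotype, a difference in their course is therefore not shown. Calls depended on single libraries, among these genes and over all genes, and that of Itgb5 was lost without several of them. Without wild type replicate 2 of day 6 the median difference of the tested genes was 0.39. It was 0.65 without knockout replicate 1 of day 6 and 0.20 without knockout replicate 2. Without wild type replicate 1 of day 6 it was 0.36, with Fn1 at 0.79. With a replicate block 0 genes passed, against 0.265% of all genes higher and 1.21% lower, with Itgb5 at an adjusted p of 0.0775.

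**Figure D4:**
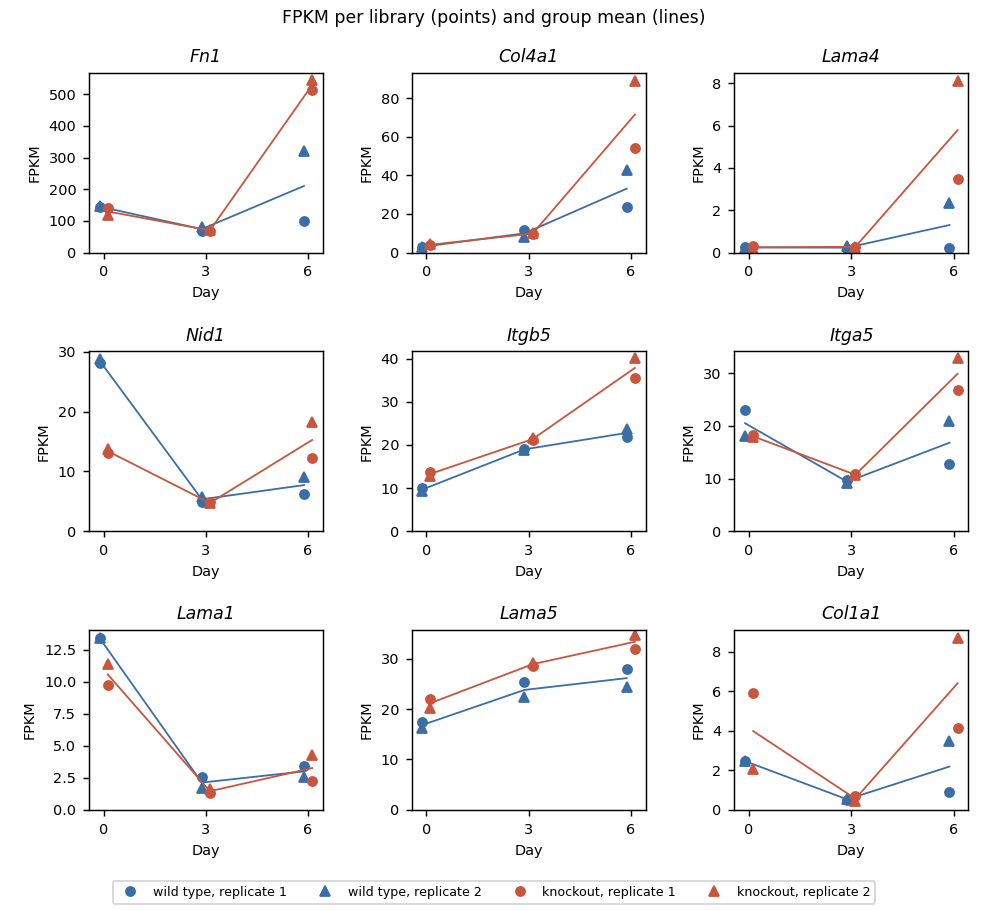
FPKM of 9 genes by day, with a point for each library (circles replicate 1, triangles replicate 2; blue wild type, red knockout) and lines through the group means. Fn1, Col4a1 and Lama4 part at day 6, Nid1 is lower in knockout at day 0, without passing the test, and higher at day 6, and Lama1 falls by day 3 in both genotypes.

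Ratios between related chains compare their RNA levels within each library and do not depend on its scaling. They do not measure the protein in the matrix. The ratio of Col4a1 to Col4a2 FPKM lay between 1.80 and 2.51 in all 12 libraries, while Col4a1 itself spanned 2.84 to 88.8 FPKM. The ratio of Lama5 to Lama1, the alpha chains of the later and the first embryonic laminin, was 1.30 and 1.21 in wild type and 2.27 and 1.77 in knockout at day 0. It was 9.89 to 21.7 at day 3 and 8.14 to 14.1 at day 6, above every library of day 0. The ratio of Lamc1 to Lamb1 was 2.15 to 3.11 at day 0 and 0.686 to 0.93 at day 6. The ratio of Fbn2 to Fbn1 went from 0.0763 to 0.250 at day 0 through 0.722 to 0.834 at day 3 to 2.42 to 3.42 at day 6, so that the order of the fibrillins turned in every library.

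The ratio of the laminin receptor chain Itga6 to the fibronectin receptor chain Itga5 followed the row of libraries at day 6. It was 2.04 to 2.42 at day 0 and 3.41 to 4.46 at day 3 in all libraries of each day. At day 6 it was 2.64 and 1.03 in wild type and 0.900 and 0.532 in knockout, the reverse order of Fn1. The ratio of Col1a1 to Col1a2 was 0.457 and 1.54 in wild type and 2.76 and 3.27 in knockout at day 6, and 1.23 to 1.42 in the 4 libraries of day 0. At day 3, with both genes under 1 FPKM, it was 1.21 and 2.54 in wild type and 1.33 and 1.72 in knockout. With 2 libraries against 2, the smallest p of an exact permutation test is 0.333, so no test is given for these ratios.

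**Figure D5:**
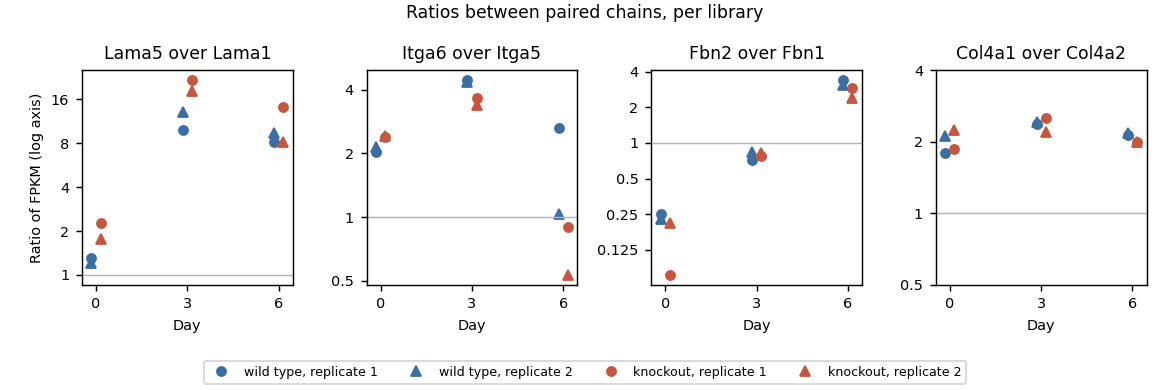
Ratios of FPKM between related chains, on log axes, with a point for each library by day. The Lama5 to Lama1 ratio moves up by day 3, the Itga6 to Itga5 ratio spreads from 2.64 to 0.532 at day 6, and the Col4a1 to Col4a2 ratio stays between 1.80 and 2.51.

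The 48 genes under a mean of 1 FPKM were not part of these counts. They include 20 of the 24 other collagens, 7 of the 11 fibrillar collagens and 6 of the 11 integrin alpha chains. Without the filter on low values, 24 of the 89 genes passed at day 6, 22 higher and 2 lower. That fit called 10.6% of all 20650 genes higher and 10.1% lower. The 2 lower were Col11a1 (1.37 and 1.08 FPKM in wild type and 0.729 and 0.522 in knockout, log2 difference -0.45, adjusted p = 0.0122) and Col22a1 (0.929 and 1.11 FPKM in wild type and 0.740 and 0.476 in knockout, -0.33, adjusted p = 0.0249). Higher genes outside the 41 included Col27a1 (0.713 and 0.995 FPKM in wild type and 1.86 and 1.94 in knockout, 0.65, adjusted p = 0.00214), Col26a1 (0.482 and 1.30 FPKM in wild type and 1.63 and 3.09 in knockout, 0.83, adjusted p = 0.0464), Col9a1 (0.12 and 0.841 FPKM in wild type and 1.10 and 1.36 in knockout, 0.63, adjusted p = 0.0480) and the vitronectin receptor chain Itgb3 (0.702 and 0.919 FPKM in wild type and 1.48 and 2.52 in knockout, 0.71, adjusted p = 0.0200). The fibrillar collagens Col11a2 (0.21, adjusted p = 0.0495) and Col24a1 (0.32, adjusted p = 0.0444) and the fibulin gene Fbln7 (0.17, adjusted p = 0.00996) were higher as well. Col23a1, Fbln2, Fbn1, Fbn2 and Itga9 no longer passed in this fit. The low genes are named after their values were seen. At such levels the change on the log2(FPKM + 1) scale is smaller than the ratio of the FPKM values.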

How the data were processed

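RNA-seq libraries of embryoid bodies were read from a table of FPKM values deposited by the authors, with a column for each of 12 libraries. Per the submitters' processing notes and the labels, trimming used Trim Galore 0.4.1, mapping to mm10 used TopHat2 2.0.13, and the notes also name Cufflinks 2.2.1, Cuffdiff and HTSeq 0.6.1. Neither the annotation nor the use of strand is given there. FPKM carries no count, so limma 3.58.1 (R 4.3.3) was fitted to log2(FPKM + 1). The fit had a mean for each of the 6 groups, a single variance per gene shared by the groups, and a variance trend. It was run on simulated data. Neither the outcome nor an error rate for the day 6 calls is given here. Genes with a mean of at least 1 FPKM were tested, and p-values were adjusted by Benjamini-Hochberg over all 12472. Fold changes on this scale understate those of low genes. The 92 spike-in rows were 0 throughout and were left out. Depth was estimated from the steps between low values of genes with a single transcript.

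The genes, their roles and the lists were chosen with earlier results of these data known. Named throughout are 14 genes fixed by role (Col4a1, Col4a2, Lama1, Lamb1, Lamc1, Nid1, Hspg2, Agrn, Fn1, Sparc, Vcan, Itgb1, Itga5 and Itga6), the 10 genes with the largest change in each direction among those that passed a comparison, and the 4 with the largest change in each list. All others are named after their values were seen. The values of 1 gene, which is in the counts, are not reported here. Alternatives were a pseudocount of 0.1, no filter, no variance trend, median ratio scaling, library weights, a replicate block, fewer libraries in the fit, and each replicate left out. A stem cell table held more replicates than the labels name, so a planned comparison of stem cells was not run. Promoter windows were taken from RefSeq (GRCm38.p6). Genes without a window include Col12a1, Col14a1, Col1a1, Col22a1, Col26a1, Col2a1, Col4a3, Col5a2, Col9a3, Fbn2, Fn1, Itga6, Itga7, Itgb2, Itgb3, Itgb4, Lama1, Lama3, Lama4, Lamc1, Lamc3, Lum and Nid2. ChIP data of the series were not analysed here.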

Additional observations from a re-analysis of the deposited data

Results flagged for a closer look

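The change of Itgb5 from day 3 to day 6 differed between the genotypes. It was larger in knockout by 0.54 on the log2 scale (limma, adjusted p = 0.0311), and both knockout libraries of day 6 lay above both of wild type. With a replicate block the adjusted p was 0.0775. It also missed the threshold without each library of day 3, without knockout replicate 2 of day 6, and without wild type replicate 1 of day 6. In that last fit the 1 gene that passed was Fn1 (0.79, adjusted p = 0.0437).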

How the results depend on the processing

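No named gene reversed its direction where it had passed, under any alternative run. At day 6, 20 genes differed between genotypes, and 11 did with library weights, 0 in a fit of that day alone and 4 to 26 without single replicates. With library weights the share of all genes called at day 6 fell as well, to 7.25% higher and 8.88% lower, from 17.9% and 16.2%. In the fit of day 6 alone it was 0.161% and 0.764%. At day 0, where 0 passed, there was 1 with a pseudocount of 0.1 (Itgb5), against 0.665% of all genes higher and 0.225% lower. With library weights there were 2, against 0.617% and 0.361%. In a fit of that day alone there was 1, against 0.153% and 0.0848%. Without the day 6 libraries, an alternative chosen after seeing the data, there were 6, against 2.32% and 1.69%. At day 3, where 0 passed, there was 1 without the variance trend, against 0.93% of all genes higher and 0.0641% lower. With library weights there were 4, against 6.9% and 4.31%, and without the day 6 libraries 3, against 3.45% and 1.05%. With no filter, 18.6% of all 20650 genes rose from day 0 to day 3 in wild type and 21.1% fell, against 25.5% and 30.2% with it. In knockout 17.5% rose and 19% fell, against 24.6% and 28%. Of the 89 genes then tested, 38 changed in wild type, against 24 of 41, and 37 in knockout, against 23 of 41. Without single replicates these were 17 to 21 and 13 to 15. From day 3 to day 6 in wild type, 21 genes passed, 11 in a fit of that genotype alone and 10 to 28 without single replicates. In knockout, 33 passed, and 23 to 32 without single replicates. The genotype by day count of 1 was 2 with library weights and 0 to 18 without single replicates. With library weights 0.778% of all genes were called higher in that comparison and 2.34% lower, against 1.3% and 3.21% in the main fit. The highest count came without wild type replicate 2 of day 6, where the share of all genes called was highest too. With a replicate block the genotype by day count was 0, and no other count moved by over 1.5 times. The labels do not say whether a number marks 1 line on every day. Deviations of same-numbered libraries had correlations from -0.0248 to 0.243. The planned stem cell comparison and its alternatives were not run. Behind 1 FPKM in a 2 kb transcript stood 30.2 to 64.1 reads, which limits the precision of low genes.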
